A study of Mus musculus with 20 samples.

Results

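The cytosolic ribosomal proteins are the protein subunits of the ribosome that works in the cell body. Their genes were taken by symbol from the array's probe-to-gene table, as all symbols of the form Rpl or Rps with a number, together with Rpsa and Rplp0 to Rplp2 where present. This gave 63 of the 19505 genes on the array, 39 of the large subunit and 24 of the small one, and each was read by 1 probe set. No measured value was used to choose them. Of the 63, 8 are variant copies that stand beside a main gene (Rpl3l, Rpl7l1, Rpl10l, Rpl22l1, Rpl32l, Rpl39l, Rps4l and Rps27l). The main genes Rpl10 and Rps27 and the gene Rplp2 were not among the 63. Dim genes, with a mean of log2 4.05 or less, were not tested, which left out Rpl3l and Rpl39l, so that 61 members were tested.

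Livers were taken from 20 male ob/ob mice, obese animals that make no working leptin, and the RNA of each was run on its own array. There were 4 groups of 5 mice: those in filtered air, those given metformin to drink, those exposed to PM2.5 (fine particles in air), and those given both, called the combined group. Mice stayed in the exposure chamber for 6 hours a day over 2 weeks at 22 °C. The exposure text is the same for all samples, and for the metformin group no kind of air is named. All 20 mice carried the ob/ob genotype, so no group shows the response of a lean mouse. Numbers 1 to 5 only name mice in deposition order and pair none, and the labels give no litter, batch or time of collection.

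A ribosome holds 1 copy of nearly every one of these proteins, and their genes are transcribed at high and similar rates in most cells. Many of the mRNAs start with a C followed by a run of pyrimidines, called a terminal oligopyrimidine (TOP) tract, through which the kinase complex mTORC1 and the RNA-binding protein Larp1 control their translation. Metformin, a drug for type 2 diabetes, lowers mTORC1 activity in many cells, in part through AMPK. Arrays read mRNA abundance, so translation of these mRNAs was not measured. In a piece of whole liver, fewer cells of a type and less RNA per cell cannot be told apart.

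Relative to filtered air, 58 of the 61 tested members lay lower with metformin alone. Only Rpl37 and Rpl10l passed the test there, 3.28% of members beside 3.15% of all genes tested. With PM2.5 alone no member passed, beside 5.17% of all genes. In the combined group 17 members fell and 4 rose against filtered air, 34.4% in all beside 34.9% of all genes. Falls made 27.9% beside 16.2%, and rises 6.56% beside 18.7%. The genes that fell included Rpl3, Rpl7l1, Rpl15, Rpl38 and Rplp1, and those that rose were Rps9, Rpl28, Rps28 and Rpl27. Rises and falls are those with an adjusted p under 0.05 (limma fit of the 4 group means, Benjamini-Hochberg over the 11844 genes tested). Differences are in log2 units of array signal, with standard errors after ± unless SD is stated.

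**Figure D1:**
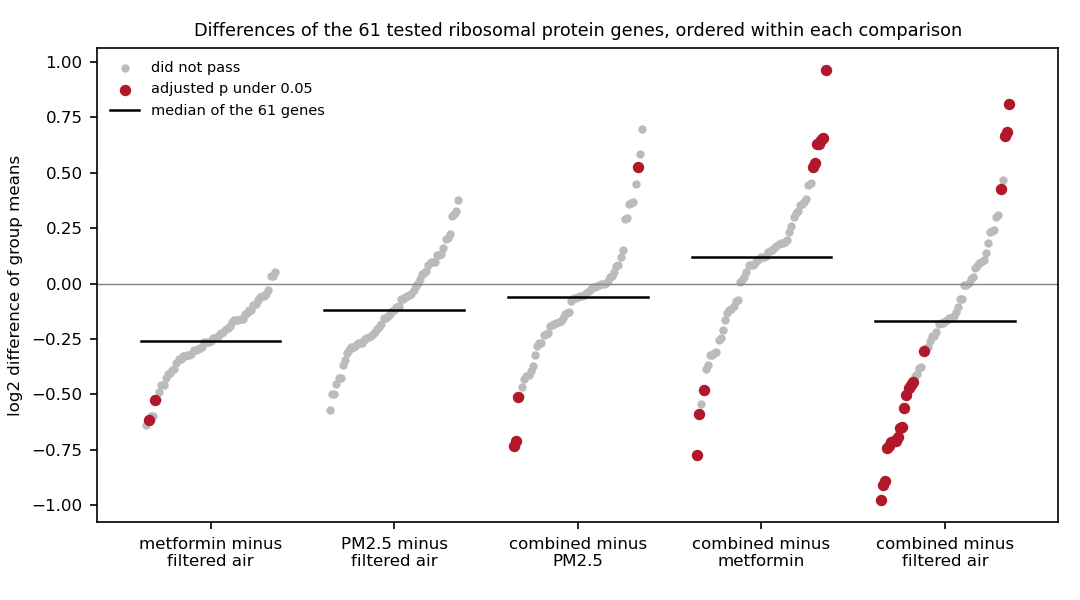
Each point is the log2 difference of group means (vertical axis) of 1 of the 61 tested ribosomal protein genes, ordered by size within each of 5 comparisons (horizontal axis), red where the adjusted p was under 0.05 and with a black line at the median. The medians lie at -0.26 for metformin, -0.12 for PM2.5, -0.06 and 0.12 for the combined group against PM2.5 and against metformin, and -0.17 for the combined group against filtered air.

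RefSeq promoter windows (GRCm38.p6, from 250 bases before to 50 after the annotated start) were found for 50 of the 63 members, as 61 windows. The stretches printed here run from 60 bases before the start to 15 bases into the first exon. They are shown for members that fell (Rpl7l1, Rpl38, Rpl15, Rpl22l1 and Rpl10l in the combined group, Rpl37 with metformin) and for the 4 that rose in the combined group, so that the tract at the start can be compared. The Rpl7l1 stretch is chr17:46782642-46782716 on the minus strand. For Rpl38 it is chr11:114668520-114668594, plus strand. That of Rpl15 lies at chr14:18270972-18271046 on the minus strand. The Rpl22l1 stretch is chr3:28805448-28805522 on the plus strand. For Rpl10l it is chr12:66284387-66284461, minus strand. That of Rpl37 lies at chr15:5116553-5116627 on the plus strand. The Rps9 stretch is chr7:3703981-3704055 on the plus strand. For Rpl28 it is chr7:4792905-4792979, plus strand. That of Rps28 lies at chr17:33824548-33824622 on the minus strand. The Rpl27 stretch is chr11:101442185-101442259 on the plus strand. Capitals mark a C followed by at least 4 C or T that begins within 10 bases of the start, and any match in the stretch, on either strand, to 5 short motifs. These are the ETS family motif CCGGAAG and the YY1 motif AAGATGGC. The SP1 motif searched was GGGCGG. The TATA box was searched as TATAAA and the E-box as CACGTG. A tract and a motif may overlap, and each is then counted.
Rpl7l1: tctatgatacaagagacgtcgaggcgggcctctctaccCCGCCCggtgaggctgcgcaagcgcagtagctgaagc
Rpl38: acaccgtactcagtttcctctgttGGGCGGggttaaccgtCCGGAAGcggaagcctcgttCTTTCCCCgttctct
Rpl15: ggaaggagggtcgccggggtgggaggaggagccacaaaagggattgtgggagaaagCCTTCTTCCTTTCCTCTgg
Rpl22l1: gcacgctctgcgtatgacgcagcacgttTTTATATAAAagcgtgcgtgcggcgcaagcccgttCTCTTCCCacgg
Rpl10l: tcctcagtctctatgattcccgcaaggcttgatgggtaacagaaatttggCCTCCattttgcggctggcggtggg
Rpl37: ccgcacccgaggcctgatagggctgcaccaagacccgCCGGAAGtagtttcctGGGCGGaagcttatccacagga
Rps9: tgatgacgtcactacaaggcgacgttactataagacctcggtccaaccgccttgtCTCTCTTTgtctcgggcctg
Rpl28: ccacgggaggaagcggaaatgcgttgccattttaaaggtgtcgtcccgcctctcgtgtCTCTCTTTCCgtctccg
Rps28: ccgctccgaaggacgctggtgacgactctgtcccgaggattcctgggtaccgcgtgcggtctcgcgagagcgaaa
Rpl27: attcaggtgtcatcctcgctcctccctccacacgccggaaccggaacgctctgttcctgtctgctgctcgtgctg

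A pyrimidine tract as defined was found in 52.5% of member windows, in 30.2% of the windows of all array genes and in 29.7% of all RefSeq windows. The search covered only 10 bases either side of the annotated start, so a tract farther off was not counted. Rpl4 and Rps25, scored as without a tract, hold pyrimidine runs farther upstream. A window without a match therefore does not show that the mRNA lacks a tract. CCGGAAG stood in 36.1% of member windows, 11.8% of array-gene windows and 8.86% of all windows. AAGATGGC was found in 9.84% of member windows, 3.1% of array-gene windows and 2.75% of all windows. For GGGCGG the shares were 55.7%, 47.9% and 35.7% in the same order, with a median GC content of 57%, 57% and 52.7%. They were 11.5%, 12.3% and 13.6% for TATAAA, and 8.2%, 8.11% and 7.15% for CACGTG. Members held the tract, CCGGAAG and AAGATGGC in a larger share of windows than array genes, while their shares of TATAAA and CACGTG were close to those of array genes. Among members with a promoter entry, the tract was present in 10 of 12 that fell in the combined group against filtered air, in 2 of 4 that rose and in 17 of 32 that did not pass. CCGGAAG was present in 6 of the 12, in 0 of the 4 and in 14 of the 32. The printed Rps9 and Rpl28 stretches carry a tract and those of Rps28 and Rpl27 have no match of any kind, and these matches are letters only, with no test. Rpl3, Rplp1, Rps14, Rpl21 and Rps20, also called in the combined group, have no entry in the promoter table.

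The array-wide level bears on the results that follow. Array medians ran from log2 4.77 to 4.92, and the deposited values from 1.55 to 19.03. The mean 95th percentile of the negative-control probe sets, a measure of background, was 8.36, and 58 of the 61 tested members lay above it on average, against 44% of all genes tested. Rpl27 (mean 7.24), Rps4l (6.20) and Rpl10l (5.16) lay below it. The medians of the negative controls spanned 4.36 to 4.43 for the filtered-air mice, 4.45 to 4.54 for the metformin mice and 4.34 to 4.52 for the PM2.5 mice. The combined mice spanned 4.44 to 4.79, with mice 2 and 4 highest at 4.79 and 4.69. Hepatocyte markers were all 10 above 8.36, and their summed level stayed between 21.1 and 21.3 in every mouse. Summed levels, here and below, follow the brightest markers most, so a steady sum does not show a steady share of the cell type. Signal from close copies is a further limit, since 45 members have named pseudogenes in RefSeq, 210 in all, with 23 for Rpl31 and 15 for Rpl21, and probes could not be checked for cross-hybridisation here.

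Metformin alone was compared with filtered air to see how these genes differed with the drug alone. The median member difference was -0.26, against 0.0024 over all genes tested. Only Rps9 (0.05), Rpl28 (0.04) and Rpl9 (0.04) lay above 0, which is 4.92% of members beside 50.3% of all genes. Across mice, the median member deviation from the filtered-air mean was 0.08, 0.05, -0.01, -0.15 and 0.01 in filtered air. With metformin it was -0.07, -0.23, -0.26, -0.52 and -0.22, so 4 of the 5 metformin mice lay below every filtered-air mouse and mouse 4 was lowest. After quantile normalization of the arrays the median member difference was -0.22. The per-mouse median over all genes stayed between -0.03 and 0.07 in all 20 mice. Mitochondrial ribosomal proteins, whose genes encode the separate ribosome of mitochondria, had a similar median difference of -0.21 with metformin, with 1 of 76 rising and 3 falling.

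**Figure D2:**
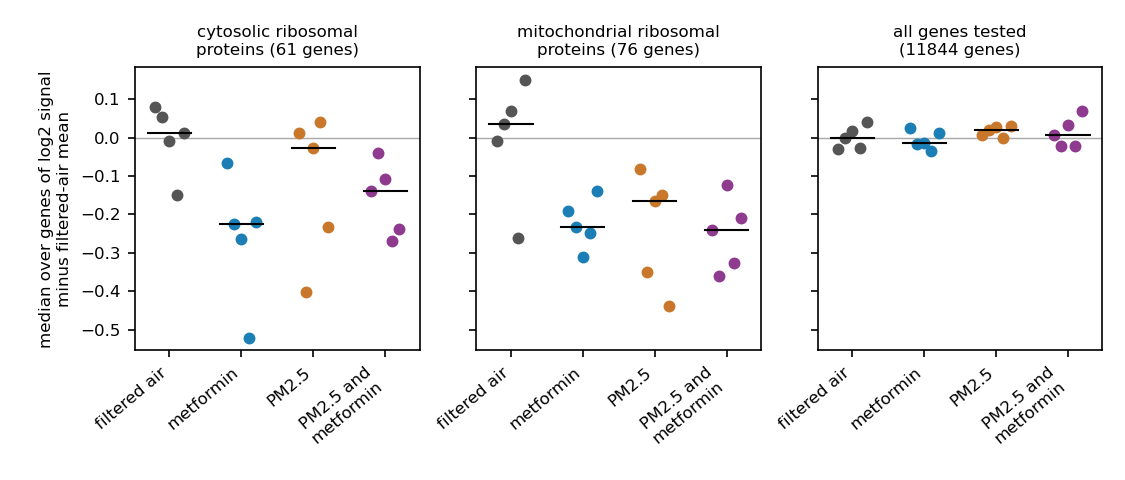
Each point is 1 mouse, placed by group on the horizontal axis, and the vertical axis gives the median over genes of its log2 signal minus the filtered-air mean, with a black line at the middle mouse of a group. Cytosolic ribosomal proteins in the metformin group run from -0.52 to -0.07, while all genes tested stay between -0.03 and 0.07.

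In that comparison 2 of 61 members fell and 0 rose, which is 3.28%, beside 3.15% of all genes tested, 1.89% falling and 1.26% rising. At an unadjusted p under 0.05, 21 members were lower and 0 higher, 34.4% of members, beside 9.67% of all genes lower and 8.89% higher. The groups did not overlap for 13 members, all lower with metformin, 21.3% beside 3.57% of all genes. Members share arrays and varied together, so these shares are a description of these mice. Of the 11 macrophage markers tested 0 passed with metformin (limma), but their median difference was -0.51, and their summed level was 13.48 to 13.98, below the 14.02 to 14.98 of filtered air in every mouse. Of 10 endothelial markers 1 fell, Stab2 (list median -0.24), and their part in the ribosomal protein differences was not tested.

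Rpl37, a small zinc-binding protein of the large subunit, gave 14.03, 13.86, 13.84, 13.63 and 13.88 in filtered air and 13.58, 13.28, 13.17, 12.82 and 13.30 with metformin. All metformin mice lay below all filtered-air mice. Rpl37 fell by 0.62 ± 0.14 (1.53-fold, adjusted p = 0.019, limma). The call was lost without filtered-air mouse 1, metformin mouse 3 or metformin mouse 4, with differences from -0.70 to -0.51 over all single-mouse removals and an adjusted p of up to 0.0608. With PM2.5 its values were 13.69, 13.55, 13.83, 14.02 and 13.54, and in the combined group 13.64, 13.94, 13.86, 13.86 and 13.59, both overlapping filtered air.

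Rpl10l, the autosomal copy of X-linked Rpl10 and best known from testis, gave 5.64, 5.45, 5.34, 5.48 and 5.41 in filtered air and 4.96, 4.69, 4.94, 4.94 and 5.16 with metformin. It fell by 0.52 ± 0.14 (adjusted p = 0.045, limma), with no overlap between groups. These levels lie within the negative-control range, and the call was lost without any one of 9 of the 10 mice of the 2 groups, all but metformin mouse 5, with an adjusted p of up to 0.115. With the negative-control median in the fit as a covariate, 0 members passed in this comparison, beside 1.24% of all genes. Under it 55 lay below 0 with a median of -0.23. Every metformin mouse had a higher control median (4.45 to 4.54) than every filtered-air mouse (4.36 to 4.43). Control signal and treatment therefore cannot be told apart by that fit. Under that fit Rpl37 differed by -0.60 and Rpl10l by -0.57.

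The members closest to the threshold with metformin were Rpl36a (-0.60 ± 0.17, adjusted p = 0.0527), Rps24 (-0.49 ± 0.15, 0.0712) and Rps15a (-0.52 ± 0.17, 0.088). Rpl36a, a large-subunit protein encoded on the X chromosome, measured 12.94, 12.85, 12.69, 12.65 and 12.51 in filtered air. With metformin it measured 12.21, 12.21, 12.23, 11.77 and 12.24, and no mouse overlapped. It passed the F test over the 4 groups (adjusted p = 0.0353, limma) while passing in none of the pairs compared. PM2.5 alone was not compared with metformin alone. The large subunit (37 tested) and the small one (24 tested) had median differences of -0.25 and -0.27, so both lay lower by a similar amount.

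PM2.5 alone was compared with filtered air to see how these genes differed with particles in mice without the drug. No member passed (0 of 61 with limma, beside 5.17% of all genes), and 9 members had an unadjusted p under 0.05, 7 lower and 2 higher, which is 14.8% beside 22.5% of all genes. The median member difference was -0.12, and -0.08 after quantile normalization, with 20 members above 0, 32.8% beside 52.5% of all genes. The mice were uneven, with member medians of 0.01, -0.40, -0.03, 0.04 and -0.23, so the low values came from mice 2 and 5. No member separated all PM2.5 mice from all filtered-air mice, beside 6.94% of all genes. Leaving out filtered-air mouse 4 gave 1 call, as did leaving out PM2.5 mouse 4, and leaving out PM2.5 mouse 1 gave 2. In that order 6.09%, 5.93% and 6.12% of all genes passed. Of the 11 macrophage markers 0 passed here (limma, median 0.45), with a summed level of 14.34 to 15.18, and of the 10 endothelial markers 1 rose, Kdr (list median 0.38). Their part was not tested.

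The member nearest the threshold was Rpl7l1, a relative of Rpl7 that takes part in ribosome assembly. It measured 11.98, 11.84, 11.81, 11.37 and 11.73 in filtered air and 11.22, 10.97, 11.38, 11.30 and 11.01 with PM2.5. The groups met only at filtered-air mouse 4 and PM2.5 mouse 3, and the difference was -0.57 ± 0.18 (adjusted p = 0.0626, limma). Next came Rps20 (-0.50 ± 0.18, adjusted p = 0.099), Rpl35 (-0.43 ± 0.17, 0.127), Rps13 (0.38 ± 0.17, 0.193) and Rpl22l1 (-0.50 ± 0.23, 0.194). Rps13, a small-subunit protein, lay higher with PM2.5, at 9.69, 9.75, 9.39, 9.87 and 9.84 against 9.03, 9.43, 9.45, 9.18 and 9.55.

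The combined group was compared with filtered air to see both exposures together. It gave the most calls, 17 members down and 4 up. The 21 calls are 34.4% of members, beside 34.9% of all genes tested. Split by direction, 27.9% of members fell beside 16.2% of all genes, and 6.56% rose beside 18.7%. In the large subunit 13 of 37 fell and 2 rose, and in the small subunit 4 of 24 fell and 2 rose. The median member difference was -0.17, and -0.09 after quantile normalization. Members above 0 numbered 20, 32.8% beside 51.1% of all genes. The groups did not overlap for 15 members on the low side (24.6%, beside 9.03% of all genes) and for 2 on the high side (3.28%, beside 11.8%). The combined group's own spread was wide for a few members, with an SD of 0.67 for Rpl3, and the fit uses 1 variance per gene over all groups.

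**Figure D3:**
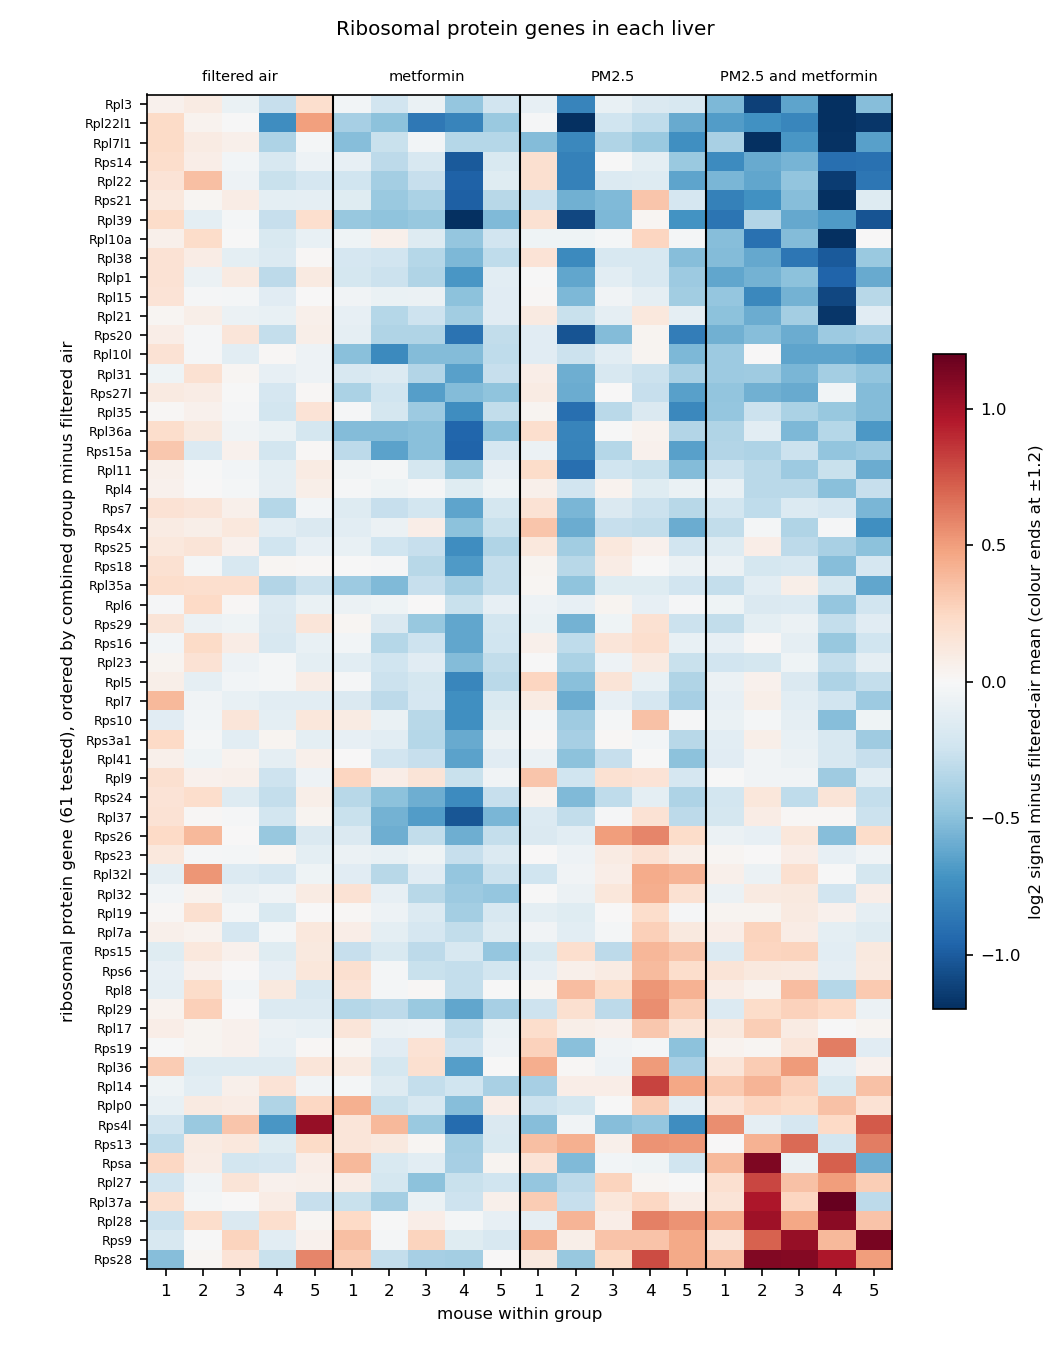
Rows are the 61 tested ribosomal protein genes ordered by combined group minus filtered air, columns are the 20 mice by group, and colour is log2 signal minus the filtered-air mean of the gene, blue lower and red higher, with the scale ending at ±1.2. Rows from Rpl3 to Rpl15 at the top are blue in nearly all combined mice, Rpl28, Rps9 and Rps28 at the bottom are red, and metformin mouse 4 and PM2.5 mouse 2 are blue over most rows.

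The stalk of the large subunit, where elongation factors bind, is built from Rplp0 and copies of Rplp1 and Rplp2. Rplp2 was not among the members, so only Rplp0 and Rplp1 were read. Rplp1 measured 16.18, 15.93, 16.12, 15.69 and 16.11 in filtered air and 15.39, 15.44, 15.52, 15.04 and 15.41 in the combined group, with no overlap. It fell by 0.65 ± 0.15 (1.57-fold, adjusted p = 0.00182, limma). Rplp0, the base of the stalk, measured 12.25, 12.44, 12.42, 11.98 and 12.58 in filtered air and 12.50, 12.60, 12.57, 12.69 and 12.51 in the combined group. These values overlap, and the difference of 0.24 ± 0.16 did not pass (adjusted p = 0.268).

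Among core proteins of the large subunit, Rpl3, which lies near the peptidyl transferase centre, gave 14.83, 14.88, 14.70, 14.50 and 14.98 in filtered air. In the combined group it gave 14.24, 13.66, 14.15, 12.68 and 14.27, all below filtered air, with mouse 4 far below the rest. It fell by 0.98 ± 0.23 (1.97-fold, adjusted p = 0.00236, limma), the largest fall of a member here.

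Rpl15, a protein buried in the large subunit's RNA, measured 16.03, 15.86, 15.84, 15.73 and 15.87 in filtered air and 15.40, 15.10, 15.30, 14.77 and 15.53 in the combined group. It fell by 0.65 ± 0.15 (1.57-fold, adjusted p = 0.00209), with no overlap. Its printed stretch carries the longest tract of the 10 shown, 17 bases. Rpl38, whose loss in mice alters translation of Hox mRNAs and the skeleton, measured 14.83, 14.75, 14.54, 14.50 and 14.67 against 14.14, 14.04, 13.79, 13.65 and 14.21. It fell by 0.69 ± 0.16 (1.61-fold, adjusted p = 0.00176), again with no overlap.

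The other large-subunit genes of the standard set that fell were Rpl22 (by 0.73 ± 0.20), Rpl10a (0.71 ± 0.20), Rpl39 (0.71 ± 0.21), Rpl21 (0.56 ± 0.15), Rpl31 (0.46 ± 0.13) and Rpl4 (0.30 ± 0.11), with adjusted p from 0.00595 for Rpl21 to 0.0301 for Rpl4. Groups overlapped for Rpl10a and Rpl4 and for none of the other 4. Rpl31 was the tightest of the members in the combined group, at 15.16, 15.17, 15.05, 15.19 and 15.12, against 15.54, 15.78, 15.62, 15.50 and 15.54 in filtered air. The call of Rpl4 was lost without filtered-air mouse 1, 2 or 5 or combined mouse 2, 3 or 4, with an adjusted p of up to 0.0838.

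In the small subunit, Rps14, a protein of the platform, measured 12.04, 11.91, 11.79, 11.63 and 11.77 in filtered air and 11.07, 11.22, 11.27, 10.92 and 10.93 in the combined group. It fell by 0.74 ± 0.18 (1.67-fold, adjusted p = 0.00338, limma), with no overlap. Rps21 fell by 0.71 ± 0.20 (adjusted p = 0.00872) and Rps20 by 0.50 ± 0.18 (adjusted p = 0.0329), both with no overlap. The call of Rps20 was lost without filtered-air mouse 1, 2, 3 or 5 or combined mouse 1, 2 or 3, with an adjusted p of up to 0.0716.

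Of the 6 variant copies tested, 4 fell in the combined group, beside 16.2% of all genes. Rpl7l1 measured 11.35, 10.23, 11.05, 10.56 and 11.09 there, all below its filtered-air values, and fell by 0.89 ± 0.18 (1.85-fold, adjusted p = 0.000689, limma), the lowest p of any member. Rpl22l1, the copy of Rpl22, measured 9.55, 9.36, 9.31, 8.57 and 9.81 in filtered air and 8.65, 8.60, 8.54, 8.12 and 8.15 in the combined group, and fell by 0.91 ± 0.23 (adjusted p = 0.00369). Filtered-air mouse 4 lay among the combined mice. Its main gene Rpl22, a protein that also binds RNA outside the ribosome, fell as well, so both genes of the pair were lower.

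Rps27l, the p53-responsive copy of Rps27, fell by 0.44 ± 0.15 (adjusted p = 0.0289), a call lost without filtered-air mouse 1 or 2 or combined mouse 2 or 3, with an adjusted p of up to 0.0674. Rpl10l fell by 0.47 ± 0.14 (adjusted p = 0.013), at levels of 5.03, 5.47, 4.83, 4.83 and 4.79 that lie within the negative-control range. Rpl32l (-0.01 ± 0.16) and Rps4l (0.24 ± 0.28) did not pass. Rpl3l, the muscle copy of Rpl3, lay between 2.57 and 3.07 in all 20 mice and Rpl39l between 2.75 and 3.93, below the negative-control median, so neither was above background.

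**Figure D4:**
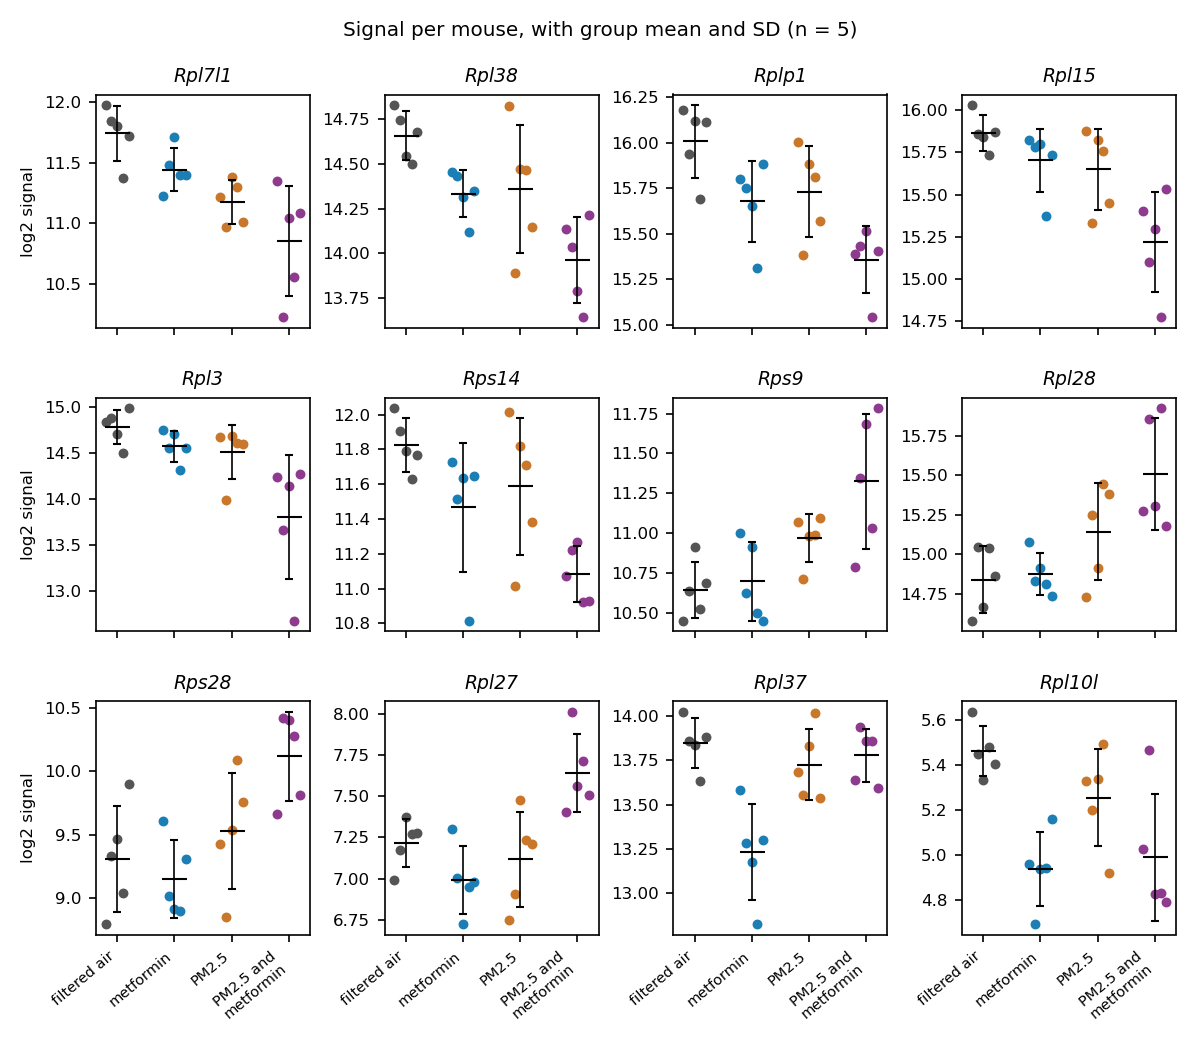
Log2 signal (vertical axes, each with its own range) of 12 ribosomal protein genes in the 20 mice by group, with the group mean and SD as bars (n = 5). Rpl7l1, Rpl38, Rplp1, Rpl15, Rpl3 and Rps14 are lowest in the combined group, Rps9, Rpl28, Rps28 and Rpl27 highest there, and Rpl37 is lowest with metformin.

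The 4 members that rose were 2 of each subunit. Rps9, a protein of the small subunit near the mRNA entry channel, measured 10.45, 10.64, 10.91, 10.52 and 10.69 in filtered air and 10.78, 11.35, 11.68, 11.03 and 11.78 in the combined group. It rose by 0.68 ± 0.17 (1.61-fold, adjusted p = 0.00407, limma), with only combined mouse 1 inside the filtered-air range. Of the 21 calls, that of Rps9 alone passed under every alternative run, with adjusted p from 0.000795 to 0.019.

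Rpl28, a large-subunit protein without a counterpart in bacteria, measured 14.58, 15.05, 14.67, 15.04 and 14.86 in filtered air and 15.27, 15.85, 15.30, 15.92 and 15.18 in the combined group. It rose by 0.67 ± 0.17 (1.59-fold, adjusted p = 0.00434), with no overlap. Rps28, a small-subunit protein at the mRNA exit, measured 8.80, 9.33, 9.47, 9.04 and 9.90 against 9.66, 10.42, 10.41, 10.28 and 9.81. It rose by 0.81 ± 0.23 (1.75-fold, adjusted p = 0.00904), with filtered-air mouse 5 inside the combined range.

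Rpl27, a large-subunit protein, measured 6.99, 7.17, 7.37, 7.27 and 7.28 against 7.41, 8.01, 7.57, 7.72 and 7.51. It rose by 0.43 ± 0.15 (adjusted p = 0.033) with no overlap, but at a level below 8.36. Its call was lost without filtered-air mouse 1 or 2 or combined mouse 2 or 4, with an adjusted p of up to 0.105.

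Members that are often used as reference points did not pass. Rps6, the substrate of the S6 kinases downstream of mTORC1, lay between 16.04 and 16.30 in the combined group and between 16.05 and 16.28 in filtered air (0.08 ± 0.12, adjusted p = 0.663). Rpl5 and Rpl11, which bind Mdm2 together with the 5S RNA, differed by -0.17 ± 0.16 (adjusted p = 0.428) and -0.37 ± 0.16 (0.0687). All combined mice lay below all filtered-air mice for Rpl11. Rpsa, which doubles as a laminin receptor, spanned 11.72 to 13.43 in the combined group (0.31 ± 0.24, adjusted p = 0.33). Rps19, the gene most often mutated in Diamond-Blackfan anaemia, differed by 0.14 ± 0.16 (adjusted p = 0.533).

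The calls in the combined group changed when the control signal of the arrays entered the fit. Every combined mouse had a higher negative-control median (4.44 to 4.79) than every filtered-air mouse (4.36 to 4.43). For this pair of groups, a fit with that covariate therefore cannot tell control signal and treatment apart. Within the combined group the member medians of mice 1 to 5 were -0.14, -0.04, -0.11, -0.27 and -0.24, beside negative-control medians of 4.59, 4.79, 4.46, 4.69 and 4.44. Mouse 2 was highest in both, and mouse 4, next in control median, had the lowest member median. Mouse 5 had the lowest control median and a member median close to that of mouse 4. The part of control signal in the member medians was not tested. With the negative-control median as a covariate, 1 member passed in the combined group against filtered air, Rps9 with a rise of 0.87, and 0 fell, beside 8.9% of all genes. The 17 members that had fallen all kept a difference below 0, from -0.71 for Rpl22l1 to -0.24 for Rpl4, and 38 of the 61 members lay below 0. Without combined mice 2 and 4, which had the highest control medians, 12 members fell and 1 rose, beside 21.5% of all genes. Rpl3 then differed by -0.56, Rpl7l1 by -0.58, Rpl38 by -0.61 and Rpl28 by 0.41.

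The cell markers of the liver pieces moved too. Of 11 Kupffer cell and macrophage markers tested, 6 fell and 0 rose in the combined group against filtered air (median -1.06), among them Clec4f, Vsig4 and C1qa. Their summed level was 11.6 to 15.1 in the combined group and 14.02 to 14.98 in filtered air. Of 10 endothelial markers 2 fell, and 1 of 10 hepatocyte markers, Hnf4a, rose. Of the stellate and fibroblast markers 1 of 9 rose and 2 fell. No T and NK cell, B cell, neutrophil or cholangiocyte marker averaged above 8.36. The part of these shifts in the ribosomal protein differences was not tested.

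The combined group was compared with PM2.5 alone to see the drug under particles. Here 1 member rose, 1.64% beside 6.95% of all genes, and 3 fell, 4.92% beside 4.73%. In all 6.56% of members passed beside 11.7% of all genes, and no member separated the groups, beside 6.34% of all genes. The median member difference was -0.06, and -0.02 after quantile normalization. Rpl10a, a protein of the L1 stalk, measured 15.04, 15.04, 15.07, 15.35 and 15.07 with PM2.5 and 14.58, 14.20, 14.58, 13.46 and 15.10 in the combined group. It fell by 0.73 ± 0.20 (1.66-fold, adjusted p = 0.0233, limma), although combined mouse 5 lay inside the PM2.5 range.

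Rpl3 fell by 0.71 ± 0.23 (adjusted p = 0.0466) and Rpl21 by 0.51 ± 0.15 (adjusted p = 0.0303), while Rpl27 rose by 0.53 ± 0.15 (adjusted p = 0.0287). Every one of the 4 calls was lost without combined mouse 2 and without combined mouse 4. These removals each left 0 calls, beside 6.36% and 5.38% of all genes, against 11.7% in the main fit. The count was 8 without combined mouse 5 (beside 18.1% of all genes) and 6 without PM2.5 mouse 2 (beside 10.4%). It was 1, 2 and 1 without PM2.5 mouse 1, 3 and 4 in turn, beside 8.01%, 7.13% and 6.52% of all genes. No member passed with the negative-control covariate (0.667% of all genes) or without combined mice 2 and 4 together (1.74%), when the Rpl10a difference was -0.36 and -0.37. In this comparison 8 of 11 macrophage markers fell (median -1.37) and 5 of 10 endothelial markers fell, and their part was not tested.

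The combined group was compared with metformin alone to see particles under the drug. The direction here was the opposite for most members, with 41 of 61 above 0 (67.2%, beside 51.8% of all genes) and a median of 0.12, and 20 of the 24 small-subunit members lay above 0. Metformin alone is the lower term of this difference and also the group whose members lay lowest against filtered air, so both comparisons use the same 5 metformin arrays. There were 7 rises and 3 falls, 16.4% beside 16.3% of all genes. Rises made 11.5% beside 9.69% of all genes, and falls 4.92% beside 6.63%. The groups did not overlap for 6 members on the high side (9.84%, beside 5.54%) and for 1 on the low side, Rpl3 (1.64%, beside 3.77%).

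Rpl27 rose by 0.65 ± 0.15 (1.57-fold, adjusted p = 0.00686, limma), Rps28 by 0.97 ± 0.23 (1.95-fold, 0.00757) and Rpl37 by 0.55 ± 0.14 (1.46-fold, 0.0119), each with no overlap. Rps28 measured 9.61, 9.02, 8.91, 8.90 and 9.31 with metformin, all below its combined values. Rpl28 rose by 0.63 ± 0.17 (adjusted p = 0.0155), Rps9 by 0.63 ± 0.17 (0.0169), Rpl29 by 0.53 ± 0.16 (0.0264) and Rpl37a by 0.66 ± 0.22 (0.0409). Rpl37a, a zinc-finger protein of the large subunit, spanned 10.91 to 12.49 in the combined group, with mice 2 and 4 at 12.19 and 12.49. The falls were Rpl3 by 0.77 ± 0.23 (adjusted p = 0.0252), Rpl7l1 by 0.59 ± 0.18 (0.0275) and Rpl15 by 0.48 ± 0.15 (0.0308).

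Rpl27, Rpl37, Rps28 and Rps9 kept their calls without any single mouse. Rpl28 lost its call without combined mouse 4. Without combined mouse 2, and also without combined mouse 4, 5 members rose and 0 fell, beside 11.3% and 9.61% of all genes called. Rpl29 also lost its call without combined mouse 3 or metformin mouse 4, Rpl3 without metformin mouse 1, and Rpl7l1 without metformin mouse 2 or 3. Rpl15 lost its call without metformin mouse 1, 2, 3 or 5 and Rpl37a without metformin mouse 1, 2, 3 or 4, with adjusted p of up to 0.103 and 0.136. With the negative-control covariate 4 members rose, Rpl27, Rpl37, Rps28 and Rps9, and 0 fell, beside 8.52% of all genes. Without combined mice 2 and 4 together only Rps9 passed, with a rise of 0.72, beside 4.21% of all genes. Of the 11 macrophage markers 1 fell, Vsig4, and 0 rose.

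The interaction asks whether the metformin difference under PM2.5 departed from that without PM2.5. It used all 4 groups and so shares arrays with every comparison above. No member passed with limma, beside 0.186% of all genes, and 6 members had an unadjusted p under 0.05, all positive, 9.84% beside 13% of all genes. The median was 0.19 and 46 members lay above 0, 75.4% beside 50.7% of all genes. The lowest p were those of Rpl27 (0.75 ± 0.21, adjusted p = 0.136), Rpl37 (0.67 ± 0.20, 0.15) and Rps24 (0.64 ± 0.21, 0.185), followed by Rps28 (0.74 ± 0.32, 0.327) and Rps4l (0.90 ± 0.40, 0.341). That Rpl37 fell with metformin alone and did not pass under PM2.5 (0.05 ± 0.14) is therefore not a shown difference between the 2 settings.

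Over the 4 groups together, 21 of 61 members passed the F test, 34.4% beside 32.1% of all genes, 17 of the large subunit and 4 of the small one. With the negative-control covariate 3 passed, beside 13.5%. The lowest adjusted p of the F test were those of Rpl7l1 (0.00402), Rpl37 (0.00663), Rpl3 (0.011) and Rpl27 (0.011).

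Members varied together from mouse to mouse. After removing group means, the median correlation over the 1830 member pairs was 0.39, and 37.7% of pairs lay above 0.5. For mitochondrial ribosomal proteins the median was 0.15, and for all tested genes above 8.36 it was 0.03. These correlations are across the same 20 arrays and are descriptions, with no test. Rpl28 and Rps15, a small-subunit protein, correlated at -0.14 and -0.08 with the median of the other members and were the only members below 0. The next lowest were Rpl14 (0.12) and Rps4l (0.13), followed by Rpl29 (0.15). The median SD of a member was 0.153 in filtered air, 0.203 with metformin, 0.254 with PM2.5 and 0.203 in the combined group. Over all tested genes above 8.36 it was 0.201, 0.225, 0.252 and 0.293. Members were thus tighter than these genes in every group but PM2.5, where the values were close.

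Other genes of the translation machinery give the setting. Fau and Rpl36al, ribosomal protein genes outside the naming pattern, passed in no comparison. A list of genes with TOP mRNAs named mostly elongation and initiation factors, with some other proteins such as Npm1, Hnrnpa1 and Vim. Of its 17 tested genes, 0 passed with metformin or PM2.5 alone. In the combined group against filtered air 4 rose and 3 fell, 41.2% beside 34.9% of all genes. Eef2, the translocation factor, rose by 0.80 ± 0.12 (adjusted p = 5.61e-05, limma), Eif3f by 1.58 ± 0.25 and Pabpc1, the poly(A)-binding protein, by 0.68 ± 0.13. Mitochondrial ribosomal proteins gave 8 rises and 26 falls of 76 in that comparison, 44.7% beside the same 34.9% (median -0.28), led by Mrpl50 (-1.02 ± 0.17).

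The next 4 lists stand beside 18.7% of all genes rising and 16.2% falling in the combined group against filtered air. Of 32 ribosome assembly genes 8 rose and 5 fell (40.6% in all, beside 34.9%), among them the helicase Ddx21 (0.83 ± 0.17) and Wdr12 (-0.999 ± 0.21). Of 11 RNA polymerase I genes and regulators 4 rose and 2 fell there (54.5%), led by the catalytic subunit Polr1a (1.34 ± 0.19), and Myc rose by 1.06 ± 0.24 with PM2.5 alone (adjusted p = 0.0126). In the mTORC1 list of 21 genes 7 rose and 3 fell (47.6%). Eif4ebp2, a translation repressor, rose by 1.46 ± 0.20 and Rragc by 0.69 ± 0.15, while Rheb, the activator of mTORC1, was lower by 0.72 ± 0.14. Of 16 eIF2 and eIF4F initiation factors 4 rose and 6 fell (62.5%), among them Eif4e, the cap-binding protein (-0.79 ± 0.17). With metformin alone none of these last 4 lists had a called gene with limma, beside 3.15% of all genes.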

How the data were processed

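Liver RNA of 20 mice was measured on 20 single-channel Affymetrix arrays. The deposited values are log2 signals, 1 per probe set and array. Per the submitters' processing notes the authors used Affymetrix Expression Console, with its version and summary method not given in the sources used here. The series text names another array than the one the probe set identifiers belong to, so the annotation table of those identifiers gave the genes. Controls made up 6640 of the 28846 probe sets. Of the other 22206, 19572 had 1 gene symbol, 0 several and 2634 none, and all 19572 symbols equalled the RefSeq symbol. A gene with several probe sets was read by the one with the highest mean. Genes at or below the 40th percentile of mean signal (log2 4.05) were left out, which left 11844.

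Groups were compared with limma 3.58.1 in R 4.3.3, as 4 group means with eBayes (prior df 5.68, residual df 16) over all 20 arrays, two-sided, with Benjamini-Hochberg adjustment over the 11844 genes and a threshold of 0.05. The procedure was tested on simulated data. Nothing says that mice of a group came from separate cages or days. The p-values set differences of group means against the spread of these mice within groups. That spread leaves out any cage or day difference shared by a whole group. Depth is not defined for arrays, and their number limits the precision.

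Members are named by a rule: every called member, the 5 with the lowest p in each comparison, and a fixed set of members of known role and variant copies; from the other lists, called genes with the lowest p, up to 3 per list and comparison. Other members are named after their values were seen. The members, lists and rule were chosen with earlier results of these data known. Alternatives included keeping dim genes, a stricter cut at the 60th percentile, normalization by quantiles or by centring on the median, array weights, trend and robust eBayes, a fold change of at least 1.5, the compared arrays alone, brighter members only, the negative-control median as a covariate, and leaving out each mouse or combined mice 2 and 4.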

Additional observations from a re-analysis of the deposited data

Results flagged for a closer look

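Groups of 5 values were checked for the 24 members called in a comparison between groups and for the per-mouse member medians, 100 in all, and 8 held a mouse whose gap to its nearest neighbour was above 0.71 of the group's range, each of a single member. Chance flags about 1 in 20 groups. Metformin mouse 4 was lowest in 4 of the 8: Rpl15 at 15.37 (nearest 15.73), Rpl39 at 11.32 (nearest 12.07), Rpl4 at 16.76 (nearest 16.85) and Rps14 at 10.82 (nearest 11.51). Combined mouse 4 was lowest for Rplp1 at 15.04 (nearest 15.39) and highest for Rps27l at 12.96 (nearest 12.52). PM2.5 mouse 2 was lowest for Rpl3 at 13.99 (nearest 14.59), and PM2.5 mouse 4 was highest for Rpl10a at 15.35 (nearest 15.08).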

How the results depend on the processing

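Each count is of members called out of those tested. PM2.5 against filtered air gave 0, and 1 with the 60th percentile filter, 1 with median centring, 3 with array weights, 1 with only the compared arrays and 1 without combined mice 2 and 4. Of all genes, 5.17% passed in the main fit, and 8.73%, 5.57%, 11.6%, 6.5% and 7.92% under these alternatives in turn. Metformin against filtered air gave 2, and 1 with no filter, 1 with median centring, 6 with array weights, 0 with the negative-control covariate, 1 at a fold of at least 1.5, 1 among brighter members and 4 without combined mice 2 and 4. The share of all genes was 3.15% in the main fit, 1.61% with no filter and 3.16% with centring. It was 7.21% with array weights, 1.24% with the covariate and 4.42% without combined mice 2 and 4. The combined group against PM2.5 gave 4 (11.7% of all genes), and 2 with array weights (10.5%), 0 with only the compared arrays (4.3%), 0 with the covariate (0.667%), 2 at a fold of at least 1.5 and 0 without mice 2 and 4 (1.74%). Against metformin it gave 10 (16.3%), and 5 with only the compared arrays (8.62%), 4 with the covariate (8.52%) and 1 without mice 2 and 4 (4.21%). Against filtered air it gave 21 (34.9%), and 1 with the covariate (8.9%) and 13 without mice 2 and 4 (21.5%). The F test gave 21 (32.1% of all genes in the main fit), and 3 with the covariate and 5 without mice 2 and 4. The cause was not tested. Leaving out each mouse in turn gave ranges of 0 to 2, 0 to 3, 0 to 8, 5 to 13 and 17 to 23 for these 5 comparisons. It gave 14 to 27 for the F test and 0 to 0 for the interaction. The share of all genes moved as well, over 1.76% to 6.12%, 1.33% to 3.65%, 5.38% to 18.1% and 9.61% to 20.3% for the first 4. The fifth gave 17 calls beside 29.7% without filtered-air mouse 1.

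Of the differences of named members under alternatives, 886 kept direction and side of the threshold, 155 no longer passed and 22 newly passed, with no change of sign among called ones. Quantile normalization and median centring moved the median of all genes by less than 0.1. Quantile normalization brought the member median nearer to 0 for the combined group against filtered air (-0.09), against PM2.5 (-0.02) and for PM2.5 (-0.08), and 58 members stayed below 0 with metformin under both. No paired analysis was possible because the labels give mice no numbers shared between groups. Signal near the negative controls limits what Rpl27, Rps4l and Rpl10l can show.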
